A study of Mus musculus with 9 samples.

Results

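The vesicular glutamate transporters are 3 genes, Slc17a6, Slc17a7 and Slc17a8, taken by their symbols from the 24624 genes measured in the newborn mouse cortex. Their levels were compared among pups with and without the transcription factor FEZF2. The total RNA of both cortical hemispheres of each pup was sequenced at postnatal day 0 (P0), after selection of polyadenylated RNA, in 9 libraries. Of these, 3 were Fezf2+/+ (wild type), 4 were Fezf2-/- and 2 were Fezf2-/-; Fezf2-EnR, and the latter are called transgenic below. The Fezf2-/- allele carries a PLAP (placental alkaline phosphatase) reporter inserted into the gene, and it is present in both mutant groups. Fezf2-EnR is a BAC transgene that expresses, under the regulatory sequences of Fezf2, the DNA-binding domain of FEZF2 joined to the repressor domain of engrailed. The pups came from 3 litters. Litter m1 gave libraries bc201 and bc202 (Fezf2+/+) and bc205 and bc206 (Fezf2-/-). Litter m2 gave bc203 (Fezf2+/+) and bc209 (transgenic), and litter m3 gave bc204 and bc207 (Fezf2-/-) and bc208 (transgenic).

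A vesicular glutamate transporter loads glutamate into synaptic vesicles, using the proton gradient that the vesicular proton pump builds, and its presence lets a neuron release glutamate as a transmitter. VGLUT1, the product of Slc17a7, is the main transporter of cortical projection neurons and increases as the cortex matures. VGLUT2, the product of Slc17a6, is typical of thalamic and other subcortical neurons and is also made by immature cortical neurons and Cajal-Retzius cells. VGLUT3, the product of Slc17a8, occurs in small populations, among them some CCK interneurons, serotonergic neurons and striatal cholinergic neurons. Earlier work held that FEZF2 switches on Slc17a7 and represses Gad1, a gene of GABA synthesis. The comparison of Fezf2-/- with Fezf2+/+ shows the levels of these genes without full-length FEZF2, and the third genotype shows them when a repressor form is added back.

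Slc17a6 (ENSMUSG00000030500.6) lies on chromosome 7 at 51622006 to 51671119 on the plus strand, and Slc17a7 (ENSMUSG00000070570.5) on the same chromosome at 45163949 to 45176142, also on the plus strand. Slc17a8 (ENSMUSG00000019935.16) lies on chromosome 10 at 89574020 to 89621253 on the minus strand. In the annotation of build GRCm38 (mm10), the principal transcript of each gene has 12 exons, and no exon of the 3 genes overlaps one of another gene. Because earlier work proposed that FEZF2 binds proximal promoters, and named Slc17a7 among the genes it activates, the 250 bases just before the RefSeq start of each gene are shown, 5′ to 3′ on the strand of the gene (build GRCm38.p6). Capitals mark E-boxes (CANNTG, the motif of NEUROD and NEUROG factors) and GC boxes (GGGCGG on either strand, the motif of SP factors), and no E-box overlaps a GC box.
Slc17a6, chr7:51621580-51621829, plus strand: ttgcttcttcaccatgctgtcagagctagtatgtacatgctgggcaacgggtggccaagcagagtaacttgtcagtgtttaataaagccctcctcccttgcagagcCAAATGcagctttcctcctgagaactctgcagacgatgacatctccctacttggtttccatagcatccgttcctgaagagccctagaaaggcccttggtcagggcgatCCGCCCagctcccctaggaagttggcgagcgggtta
Slc17a7, chr7:45163671-45163920, plus strand: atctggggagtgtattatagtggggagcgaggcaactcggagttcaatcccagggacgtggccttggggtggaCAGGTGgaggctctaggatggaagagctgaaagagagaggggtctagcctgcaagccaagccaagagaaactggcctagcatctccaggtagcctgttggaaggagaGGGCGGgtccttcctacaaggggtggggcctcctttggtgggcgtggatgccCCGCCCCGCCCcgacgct
Slc17a8, chr10:89621250-89621499, minus strand: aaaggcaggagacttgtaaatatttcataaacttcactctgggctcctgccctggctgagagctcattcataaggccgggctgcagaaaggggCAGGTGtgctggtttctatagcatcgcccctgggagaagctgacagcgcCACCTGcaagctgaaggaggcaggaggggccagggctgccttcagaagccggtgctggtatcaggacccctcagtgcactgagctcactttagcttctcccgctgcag

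The 3 windows differ in composition. The Slc17a7 window held 3 GC boxes, the last of them a pair sharing 1 base, with 1 E-box and a GC content of 61.2%. The Slc17a6 window held 1 GC box and 1 E-box at 53.2% GC, and the Slc17a8 window held 2 E-boxes and 0 GC boxes at 57.2% GC. Among all 32851 promoter windows of this length, 66.22% held an E-box, 32.74% held a GC box, 8.469% held at least 3 GC boxes, and the median GC content was 52.4%. These matches are descriptions of letters, and no binding was measured here. RefSeq lists 1 window for Slc17a7 and 2 for each of the other genes, of which the one at the listed gene start is shown.

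Each deposited value is a count of reads over the size factor of its library, called the normalized value below. The libraries held between 18716575 and 25127623 reads, recovered as whole numbers from these values. Fezf2 itself lay between 979 and 1232 in Fezf2+/+, between 193 and 242 in Fezf2-/-, and at 907 and 1001 in the transgenic libraries, where transcripts of the transgene are counted with it. The cortical markers Neurod6, Tbr1 and Emx1 were detected in every library. Several libraries stood apart. Xist was high in bc201, bc208 and bc209 (between 7895 and 12203) and at most 58.9 in the other 6, so sex and the Fezf2-EnR transgene cannot be told apart against Fezf2-/-. Most markers of striatal projection neurons were high in bc204 and bc208, with Drd2, a dopamine receptor, at 174 and 102 against 15.3 to 41.4 elsewhere. The markers Ppp1r1b and Rgs9 were not high in both. Ppp1r1b was at 858 in bc204 and 973 in bc208, below 1084 in bc202. Rgs9 was at 351 in bc204 but at 271 in bc208, below 346 in bc206. Library bc209 had the highest Eomes, a gene of intermediate progenitors, at 506 against 59.0 to 260 elsewhere.

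Per kilobase of principal transcript, Slc17a7 was the most abundant of the 3 genes in every library. In Fezf2+/+ the normalized value per kilobase was 772 ± 46.2 for Slc17a7, 172 ± 15.3 for Slc17a6 and 8.36 ± 7.31 for Slc17a8 (SD, n = 3). Slc17a7 lay above 91.3% of the 24595 genes with a known length, Slc17a6 above 70.07% and Slc17a8 above 35.4%. Slc17a7 made up 79.9% to 82.2% of the summed level of the 3 genes per kilobase in Fezf2+/+ and 78.9% to 81.6% in Fezf2-/-. In the transgenic libraries the share was 81.0% in bc208 and 69.8% in bc209. The neighbouring levels in this order did not overlap in any group.

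**Figure D1:**
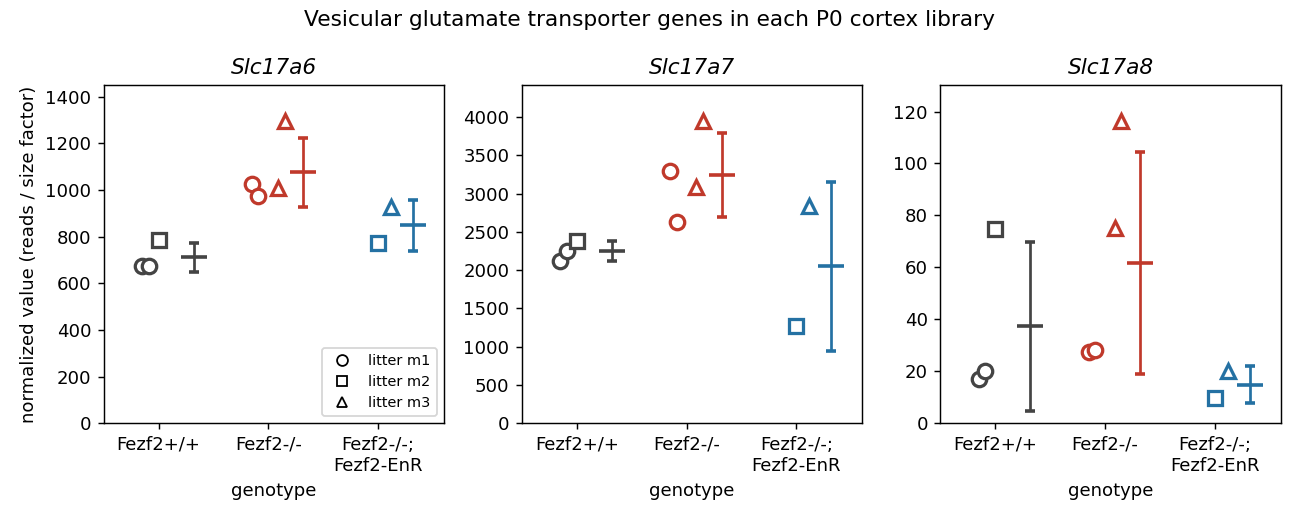
Normalized value (reads divided by the size factor) of Slc17a6, Slc17a7 and Slc17a8, each point 1 library, on linear axes that start at 0. Colour gives the genotype, marker shape the litter, and the bar beside each group the mean with 1 SD (n = 3, 4 and 2). All 4 Fezf2-/- libraries lay above all 3 Fezf2+/+ libraries for Slc17a6 and Slc17a7, as for 6.53% of all genes tested.

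Slc17a6, which encodes VGLUT2, was higher in Fezf2-/- than in Fezf2+/+. Its normalized values were 676, 673 and 784 in the Fezf2+/+ libraries bc201, bc202 and bc203. They were 1008, 1025, 974.8 and 1296 in the Fezf2-/- libraries bc204, bc205, bc206 and bc207, and 926 and 773 in bc208 and bc209, the transgenic pair. The lowest Fezf2-/- library was above the highest Fezf2+/+ library, and both transgenic libraries lay below every Fezf2-/- library, with bc209 inside the Fezf2+/+ range. The means were 711 ± 63.2 (SD, n = 3), 1076 ± 148 (n = 4) and 849 ± 108 (n = 2).

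On the log2(value + 1) scale Slc17a6 rose by 0.59 in Fezf2-/- against Fezf2+/+ (SE 0.11, 95% confidence interval 0.35 to 0.84, limma adjusted p = 0.0367), a 1.51-fold difference. The exact two-sided permutation test gave p = 0.02857, the smallest that 3 libraries against 4 allow. Of the 16197 genes tested, 0.858% were called in this comparison (adjusted p under 0.05) and 0.512% were called higher, while 6.53% had 4 Fezf2-/- libraries that all lay above the 3 Fezf2+/+ libraries. On the recovered reads edgeR (0.60, adjusted p = 0.0360) and DESeq2 (0.60, adjusted p = 0.000136) also called it, in fits that called 0.877% and 1.94% of genes. The limma call was near the threshold. It was lost with litter as a block (0.50, adjusted p = 0.0619, where 0.772% of genes were called), with edgeR and the same block (0.51, adjusted p = 0.0603, 0.852% called) and in 7 of 9 limma fits that left out 1 library, namely each of those without a Fezf2+/+ or Fezf2-/- library (0.50 to 0.66, adjusted p up to 0.205). Within litter m1 alone the difference was 0.57 (limma adjusted p = 0.00569), 2 libraries against 2. That fit called 233 of the 16197 genes, against 139 in the fit of all 9 libraries. In bulk RNA, more cells that express the gene and more RNA per cell cannot be told apart.

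In the transgenic libraries, Slc17a6 was 0.34 lower than in Fezf2-/- on the log2 scale (SE 0.13, 95% interval from -0.62 to -0.06), which did not pass the test (limma adjusted p = 0.223). The groups did not overlap, as for 12.6% of all genes tested in this direction, and 0.766% of the genes were called. The exact permutation test gave p = 0.06667, the smallest that 2 libraries against 4 allow. Within litter m3, bc208 had 926 against a mean of 1152 in its Fezf2-/- littermates. Against Fezf2+/+ the difference was 0.25 (SE 0.13, 95% interval from -0.04 to 0.55, limma adjusted p = 0.318), in a comparison in which 0.117% of genes were called. In litter m2, bc209 had 773 and its Fezf2+/+ littermate 784.

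Thalamic neurons and Cajal-Retzius cells also express Slc17a6. Of 10 thalamic markers 8 were tested, 0 were called in Fezf2-/- against Fezf2+/+ by limma, edgeR or DESeq2, and 2 were higher at an unadjusted limma p under 0.05, a level at which 6.61% of all genes were higher. Their median log2 difference was 0.14, against 0.00019 over all genes tested, and their summed value ranged from 1263 to 1512 in Fezf2+/+, from 1352 to 1566 in Fezf2-/- and from 1262 to 1417 in the transgenic libraries. The most different were Lhx9, a thalamic transcription factor, with a log2 difference of 1.37 (limma adjusted p = 0.255) at values of 3.16 to 20.9, and Plekhg1 with 0.44 (limma adjusted p = 0.196). Of 10 Cajal-Retzius markers, 0 were called by the same tools and 1 was lower at an unadjusted limma p under 0.05, as were 4.21% of all genes. Their median difference was -0.04, and their summed value ranged from 6427 to 9670 in Fezf2+/+, from 7702 to 9312 in Fezf2-/- and from 7891 to 9195 in the transgenic libraries. Ebf2 differed by 0.45 (limma adjusted p = 0.740) and Trp73 by -0.28 (limma adjusted p = 0.388). In transgenic against Fezf2-/- libraries the median difference of the 10 Cajal-Retzius markers was 0.33, and limma, edgeR and DESeq2 called 0. There, 5 were higher and 0 lower at an unadjusted limma p under 0.05, a level at which 7.87% of all genes were higher. Prkcd, at 635 to 972, was the largest single term of the thalamic sum, and Reln, at 4108 to 6986, that of the Cajal-Retzius sum. No thalamic or Cajal-Retzius marker measured was at 0 in every library of a group, and the part of these cells in the Slc17a6 difference was not tested.

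**Figure D2:**
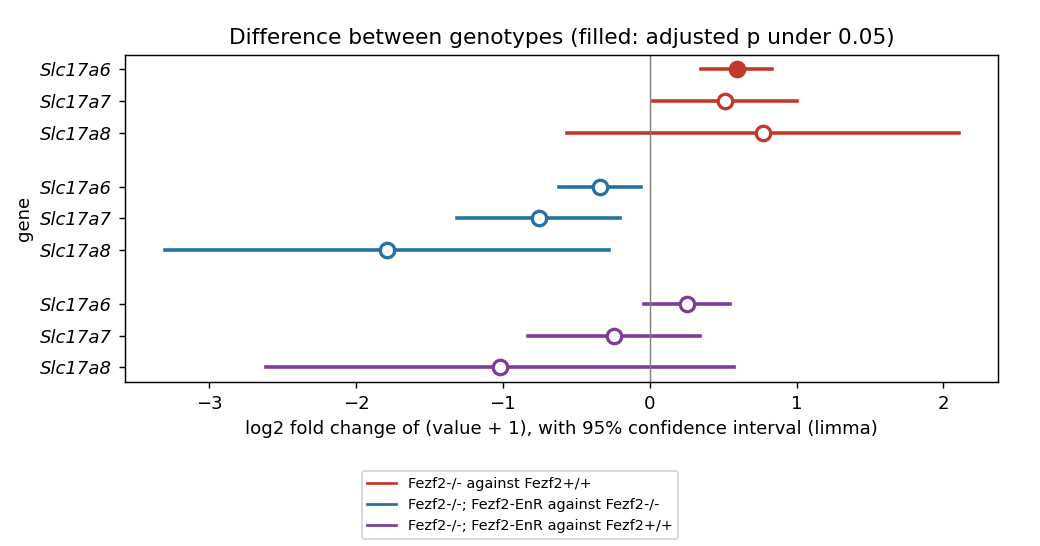
Log2 fold change of (value + 1) with its 95% confidence interval (horizontal axis) for each gene (vertical axis) in the 3 comparisons, from limma on all 9 libraries. The filled point, Slc17a6 in Fezf2-/- against Fezf2+/+ at 0.59, is the difference with an adjusted p under 0.05.

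Slc17a7, which encodes VGLUT1, was not lower in Fezf2-/-. Its normalized values were 2115, 2252 and 2385 in bc201, bc202 and bc203, and 3088, 3290, 2631 and 3945 in bc204, bc205, bc206 and bc207. In the transgenic libraries they were 2834 in bc208 and 1271 in bc209. No Fezf2-/- library was as low as any Fezf2+/+ library, a separation in this direction that 6.53% of all genes tested had. Library bc209 was the lowest of all 9, and bc208 lay inside the Fezf2-/- range. The means were 2251 ± 135 (SD, n = 3), 3239 ± 546 (n = 4) and 2052 ± 1105 (n = 2).

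The log2 difference of Slc17a7 in Fezf2-/- against Fezf2+/+ was 0.51 (SE 0.22, 95% interval from 0.021 to 1.002), which did not pass the test over all genes (limma adjusted p = 0.438). The difference had an unadjusted limma p under 0.05, as did 10.8% of all genes. The SE of this fit also holds the spread of the transgenic libraries. With only the 2 groups compared in the fit, the SE was 0.12 and the limma adjusted p was 0.0844, also not called. That fit called 221 genes. The exact permutation test gave p = 0.05714. Within litter m1 the difference was 0.43 (limma adjusted p = 0.0916), and with litter as a block it was 0.20 (adjusted p = 0.773). The limma intervals of Slc17a6 and Slc17a7 cover each other's estimates.

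In the transgenic libraries the Slc17a7 value depended on which library was taken. The log2 difference from Fezf2-/- was -0.76 (SE 0.25, limma adjusted p = 0.191). It was -1.33 (limma adjusted p = 0.00417) without bc208, which leaves bc209, and without both bc204 and bc208 it was -1.35 (limma adjusted p = 0.00908, where 4.99% of genes were called). It was -0.18 (limma adjusted p = 0.826) without bc209, which leaves bc208. Against Fezf2+/+ the log2 difference was -0.24 (SE 0.27, limma adjusted p = 0.644). It was -0.82 without bc208 and turned to 0.33 without bc209. A fit that leaves 1 transgenic library holds no spread of that group, which was assumed to vary like the other groups. The adjusted p-values above for such fits against Fezf2-/- therefore cannot decide whether the groups differ, and no conclusion is drawn from them. Against Fezf2+/+ only the difference is given for such fits. Within litters, bc208 had 2834 against a mean of 3517 in its Fezf2-/- littermates, and bc209 had 1271 against 2385 in its Fezf2+/+ littermate.

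The ratio of Slc17a6 to Slc17a7 within a library does not depend on the size factor. It was 0.320, 0.299 and 0.329 in Fezf2+/+, and 0.327, 0.312, 0.370 and 0.328 in Fezf2-/-. It was 0.327 in bc208 and 0.608 in bc209. Thus 8 of the 9 libraries lay between 0.299 and 0.370 and bc209 stood above them. The log2 ratio differed by 0.08 between Fezf2-/- and Fezf2+/+ (exact two-sided permutation test, p = 0.3714, Benjamini-Hochberg over 3 tests 0.3714). Against Fezf2-/- the log2 ratio in the transgenic libraries was 0.42 higher (exact permutation p = 0.2, adjusted 0.3), and against Fezf2+/+ it was 0.50 higher (exact permutation p = 0.2, adjusted 0.3). Exact permutation tests with 2 transgenic libraries could not go below p = 0.06667 and 0.1.

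Slc17a8, which encodes VGLUT3, varied widely within genotypes. Its normalized values were 16.9, 19.99 and 74.8 in bc201, bc202 and bc203, and 75.3, 27.2, 28.2 and 116 in bc204, bc205, bc206 and bc207. In the transgenic libraries they were 19.9 in bc208 and 9.83 in bc209. The Fezf2+/+ and Fezf2-/- libraries overlapped, and both transgenic libraries lay below all Fezf2-/- libraries, as for 12.6% of all genes tested. The means were 37.2 ± 32.6 (SD, n = 3), 61.7 ± 42.7 (n = 4) and 14.9 ± 7.13 (n = 2).

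No comparison of Slc17a8 passed the test without a litter term. The log2 difference was 0.77 (SE 0.60, limma adjusted p = 0.706) for Fezf2-/- against Fezf2+/+, with a 95% interval from -0.56 to 2.10. It was -1.79 (SE 0.68, limma adjusted p = 0.232) for transgenic against Fezf2-/-, and -1.02 (SE 0.72, limma adjusted p = 0.465) for transgenic against Fezf2+/+.

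Among the Fezf2+/+ and Fezf2-/- libraries, Slc17a8 was lower in litter m1 than in litters m2 and m3, and the transgenic libraries lay below their littermates. In litter m1 the mean was 18.4 in Fezf2+/+ and 27.7 in Fezf2-/-. In litter m2 it was 74.8 in the Fezf2+/+ pup and 9.83 in the transgenic pup, 7.61-fold apart. In litter m3 it was 95.8 in Fezf2-/- and 19.9 in the transgenic pup, 4.81-fold apart. The Fezf2-/- libraries of litter m3 were 3.46-fold above those of litter m1. With litter as a block in limma, Slc17a8 was 2.58 lower on the log2 scale in the transgenic libraries than in Fezf2-/- (log2 difference -2.58, SE 0.31, adjusted p = 0.00651), where 0.543% of all genes were called. Against Fezf2+/+ the difference was -2.28 (SE 0.33, limma adjusted p = 0.0298), where 0.198% of genes were called. edgeR with the same block gave -2.63 (adjusted p = 0.00817, 0.568% of genes called) and -2.30 (adjusted p = 0.0465, 0.21% called). The blocked difference between Fezf2-/- and Fezf2+/+ was 0.30 (limma adjusted p = 0.783). These calls for Slc17a8 rest on 1 transgenic pup in each of 2 litters. Xist was high in both of these pups and at most 8.43 in their littermates of litters m2 and m3, so within these litters sex and the transgene cannot be told apart, against Fezf2+/+ as well as Fezf2-/-.

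**Figure D3:**
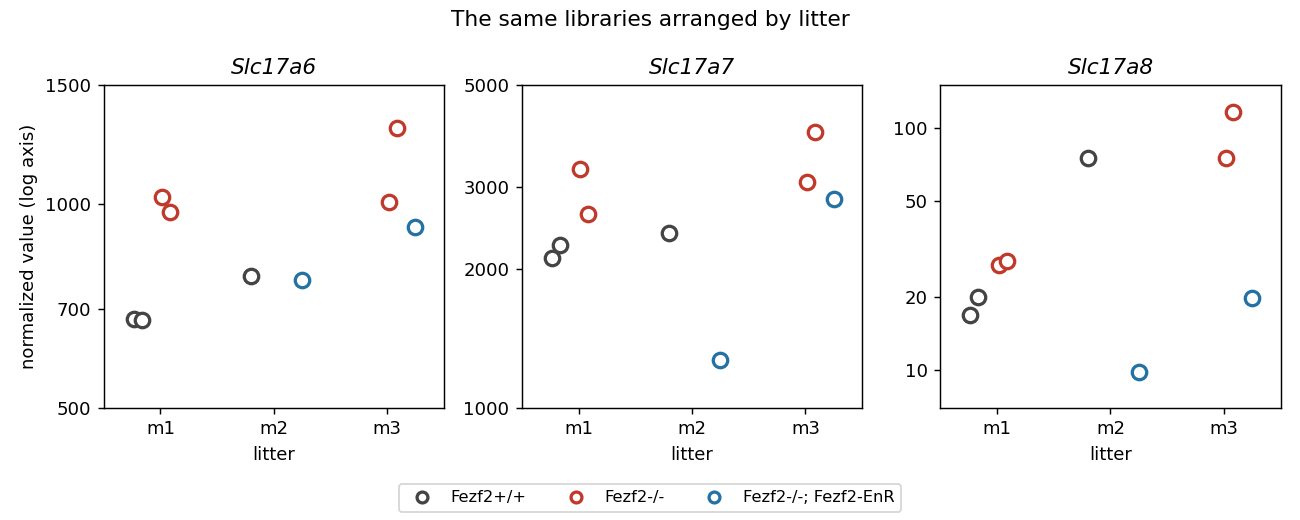
Normalized values on log axes for the same 9 libraries, arranged by litter and coloured by genotype, each point 1 library. For Slc17a8 the 4 libraries of litter m1 lay between 16.9 and 28.2, the Fezf2+/+ and Fezf2-/- libraries of litters m2 and m3 between 74.8 and 116, and both transgenic libraries at 19.9 and 9.83.

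Some CCK interneurons contain VGLUT3. Of 6 markers of Cck and Vip type interneurons, 5 were tested, and Cck, a neuropeptide gene also expressed in cortical projection neurons, was called higher in Fezf2-/- than in Fezf2+/+, where 0.512% of all genes were called higher. It was called lower in the transgenic libraries than in Fezf2-/-, where 0.432% were called lower. Cck lay between 463 and 677 in Fezf2+/+ and between 1267 and 1439 in Fezf2-/-, and it was at 511 and 358 in the transgenic libraries. Its log2 difference was 1.26 in Fezf2-/- against Fezf2+/+ (SE 0.14, limma adjusted p = 0.00134) and -1.65 in transgenic against Fezf2-/- libraries (SE 0.16, limma adjusted p = 0.000781). Htr3a, a serotonin receptor of these interneurons, differed by 0.65 in Fezf2-/- against Fezf2+/+ (limma adjusted p = 0.137). At an unadjusted limma p under 0.05, 3 of the 5 were higher in Fezf2-/- than in Fezf2+/+, against 6.61% of all genes. They were Cck, Htr3a and Adarb2, the last named after its values were seen. edgeR called Cck alone in both comparisons. DESeq2 called Cck and Htr3a higher in Fezf2-/- than in Fezf2+/+ (1.94% of all genes called), and Cck and Adarb2 lower in the transgenic libraries than in Fezf2-/- (2.78% called). Between transgenic and Fezf2+/+ libraries limma and edgeR called 0 of the 5. There, 1 was higher and 1 lower at an unadjusted limma p under 0.05, where 10.5% and 8.72% of all genes were. DESeq2, with 3.96% of all genes called, called Htr3a higher. The summed value of the list ranged from 8867 to 9474 in Fezf2+/+, from 10421 to 11474 in Fezf2-/- and from 9211 to 11472 in the transgenic libraries. Cnr1, at 7561 to 10437, was the largest single term of this sum, and Sncg was at 0 in the transgenic libraries. The part of these interneurons in the Slc17a8 values was not tested.

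The partner genes of these transporters did not pass the limma test in any comparison. Of 6 other SLC17 genes 1 was tested, and this gene, Slc17a5, the lysosomal sialic acid transporter, differed by -0.11 in Fezf2-/- against Fezf2+/+ (limma adjusted p = 0.705). Of the 18 genes of the vesicular proton pump, 0 were called by limma or edgeR in any of the 3 comparisons. In the order Fezf2-/- against Fezf2+/+, transgenic against Fezf2-/- and transgenic against Fezf2+/+, DESeq2 called 0, 1 and 2 lower. It called 1.94%, 2.78% and 3.96% of all genes there. In the same order, the median log2 difference of the pump genes was -0.01, -0.14 and -0.14, against 0.00019, 0.0030 and -0.0048 over all genes tested. At an unadjusted limma p under 0.05, 8 of the 18 pump genes were lower in the transgenic libraries than in Fezf2-/-, a level at which 9.06% of all genes were lower. The largest pump differences in Fezf2-/- against Fezf2+/+ were 0.14 for Atp6v0a2 and -0.11 for Atp6v1d. In transgenic against Fezf2+/+ libraries, 7 of the 18 were lower at that level and 8.72% of all genes were.

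Of 15 genes of glutamate supply and clearance, 0 were called in any comparison by limma, edgeR or DESeq2, and 4 were higher in Fezf2-/- than in Fezf2+/+ at an unadjusted limma p under 0.05, where 6.61% of all genes were higher. Slc7a11, the cystine and glutamate exchanger, lay between 96.96 and 104 in Fezf2+/+ and between 122 and 202 in Fezf2-/-, and was at 189 in bc208 and 87.4 in bc209. Its log2 difference in Fezf2-/- against Fezf2+/+ was 0.70 (limma adjusted p = 0.316). Glul, glutamine synthetase of astrocytes, differed by 0.29 (limma adjusted p = 0.331). The others of the 4, named after their values were seen, were Slc1a3 and Slc38a3, a glutamate and a glutamine transporter of astrocytes.

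The GABAergic counterparts were set beside the glutamate transporters, because earlier work placed Gad1 under repression by FEZF2. Slc32a1, which encodes the vesicular GABA transporter, had values of 400, 411 and 460 in Fezf2+/+, 859, 557, 486 and 656 in Fezf2-/-, and 604 and 316 in bc208 and bc209. Gad1, which encodes a GABA-synthesizing enzyme, lay between 1009 and 1112 in Fezf2+/+ and between 1433 and 1998 in Fezf2-/-, and was at 1480 and 824 in bc208 and bc209. For both genes all Fezf2-/- libraries lay above all Fezf2+/+ libraries, as for 6.53% of all genes tested. Library bc209 was the lowest of the 9 for both, as for Slc17a7. Their log2 differences in Fezf2-/- against Fezf2+/+ were 0.56 for Slc32a1 (SE 0.22, limma adjusted p = 0.387) and 0.71 for Gad1 (SE 0.18, limma adjusted p = 0.149), neither past the test.

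Gad2, the other GABA-synthesizing enzyme, differed by 0.47 (SE 0.11, limma adjusted p = 0.129) and Sp8, a transcription factor of interneurons, by 0.77 (SE 0.15, limma adjusted p = 0.0511). All 10 genes of the GABAergic list had a positive estimate in Fezf2-/- against Fezf2+/+, 8 with an unadjusted limma p under 0.05, where 6.61% of all genes were higher, and the median was 0.57. limma and edgeR called 0 of the 10 in this comparison, whereas DESeq2, which called 1.94% of all genes, called 6 higher. Gad2 was at 932 in bc208 and 771 in bc209, both above the 3 Fezf2+/+ libraries, whose highest was 658. Against Fezf2+/+, 9 of the 10 had a positive estimate in the transgenic libraries, and Gad2, Sp8, Dlx2 and Dlx5 were higher at an unadjusted limma p under 0.05, as were 10.5% of all genes. limma and edgeR called 0 of the 10 there, and DESeq2 called Gad2, Sp8 and Dlx5, with 3.96% of all genes called. The Dlx genes, interneuron transcription factors, were named after their values were seen. In transgenic against Fezf2-/- libraries, 0 of the 10 were called by limma, edgeR or DESeq2 and 4 were lower at an unadjusted limma p under 0.05, where 9.06% of all genes were. Striatal projection neurons also make GABA, and their marker sum ranged from 1094 to 4108 in Fezf2-/- against 1673 to 1888 in Fezf2+/+ and 1337 to 2884 in the transgenic libraries. Of 9 striatal markers tested 0 were called in Fezf2-/- against Fezf2+/+ by the same tools, and 1 was higher and 1 lower at an unadjusted limma p under 0.05, where 6.61% and 4.21% of all genes were. The higher was Rgs9 at 0.30 (limma adjusted p = 0.284), named after its values were seen, and the lower was Ppp1r1b, the DARPP-32 gene, at -1.10 (limma adjusted p = 0.183). Tac1, a neuropeptide gene, differed by 1.15 (limma adjusted p = 0.686). Without bc204 and bc208 the log2 difference between Fezf2-/- and Fezf2+/+ was 0.62 for Slc17a6 (limma adjusted p = 0.0577, where 0.796% of genes were called).

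**Figure D4:**
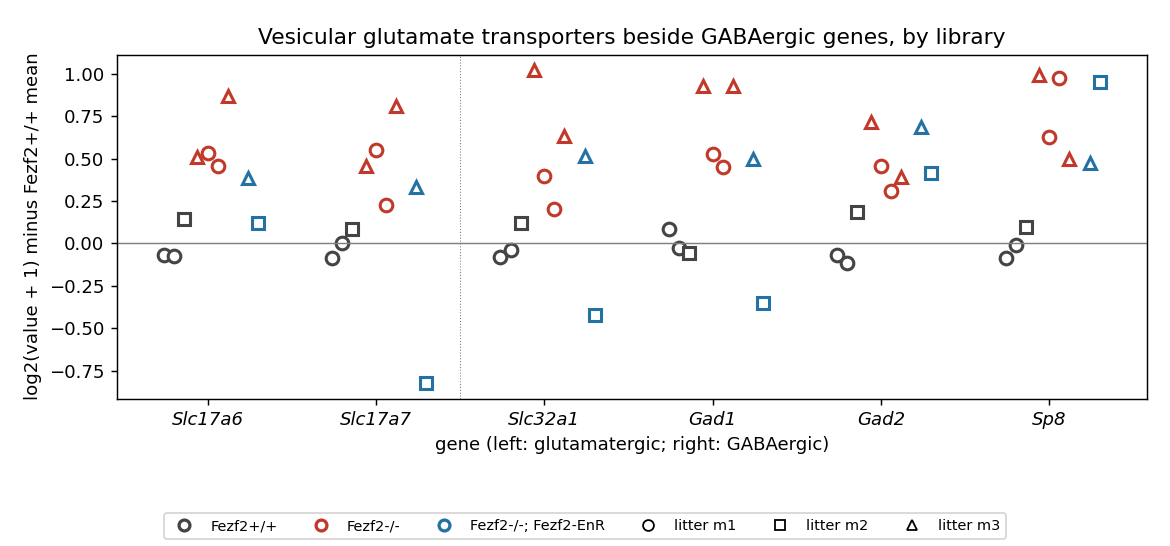
log2(value + 1) of each library minus the Fezf2+/+ mean (vertical axis) for Slc17a6 and Slc17a7 and for the GABAergic genes Slc32a1, Gad1, Gad2 and Sp8 (horizontal axis), each point 1 library, with colour for genotype and shape for litter. The Fezf2-/- libraries lay above all Fezf2+/+ libraries for each of the 6 genes, as for 6.53% of all genes tested. Library bc209 lay lowest for Slc17a7, Slc32a1 and Gad1 but not for Slc17a6, Gad2 or Sp8.

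Transcription factors of cortical glutamatergic neurons were tested for 14 of 16 genes. In Fezf2-/- against Fezf2+/+, 1 was called. Emx1, a pallial patterning gene, lay between 512 and 579 in Fezf2+/+ and between 376 and 428 in Fezf2-/- (log2 difference -0.44, SE 0.08, limma adjusted p = 0.0296), in a comparison in which 0.346% of genes were called lower. The median of the list was -0.08, and Neurod2, which is expressed in differentiating projection neurons, differed by -0.31 (limma adjusted p = 0.309). In transgenic against Fezf2-/- libraries, Eomes rose (log2 difference 1.88, SE 0.36, limma adjusted p = 0.0426), with 260 in bc208 and 506 in bc209 against 59.0 to 120 in Fezf2-/-, where 0.333% of genes were called higher. The median of the 14 in that comparison was 0.22, and 6 were higher at an unadjusted limma p under 0.05, as were 7.87% of all genes. edgeR, which called 0.704% of genes, called Eomes and Neurog2, and DESeq2, which called 2.78%, also called Neurod1 and Nr2e1. Neurog2, Neurod1 and Nr2e1, genes of progenitors and young neurons, were named after their values were seen. Between transgenic and Fezf2+/+ libraries limma and edgeR called 0 of them, with 5 higher and 1 lower at an unadjusted limma p under 0.05, where 10.5% and 8.72% of all genes were. DESeq2, with 3.96% of genes called, called Eomes and Nr2e1 higher.

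Among 4 tested genes of the other vesicular transmitter and zinc transporters, 0 were called in any comparison by limma, edgeR or DESeq2 and 2, Slc18a2 and Slc32a1, were higher in Fezf2-/- than in Fezf2+/+ at an unadjusted limma p under 0.05, where 6.61% of all genes were. Slc18a2, the vesicular monoamine transporter, differed by 0.84 in Fezf2-/- against Fezf2+/+ (limma adjusted p = 0.328) at values of 7.38 to 26.1. Of 7 non-neural markers tested, 0 were called in any comparison by these tools and 2 were higher in Fezf2-/- than in Fezf2+/+ at an unadjusted limma p under 0.05, where 6.61% of all genes were. These were Pdgfrb, a pericyte gene, at 0.26 (limma adjusted p = 0.422) and the microglial gene Cx3cr1 at 0.21 (limma adjusted p = 0.439), the latter named after its values were seen. Col1a2, a collagen gene, differed by 0.25 (limma adjusted p = 0.821). Their summed value was 5638 to 7804 in Fezf2+/+, 5133 to 8472 in Fezf2-/- and 4530 to 4565 in the transgenic libraries. Of the sex-linked genes, Xist (log2 difference 12.13, limma adjusted p = 0.0273) and Ddx3y (-10.44, limma adjusted p = 0.0273) were called in transgenic against Fezf2-/- libraries. In Fezf2-/- and Fezf2+/+ libraries without Xist alone, the Slc17a6 difference was 0.56 (limma adjusted p = 0.150, where 0.5% of genes were called), 2 Fezf2+/+ libraries against 4.

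The patterns of the 3 genes over the 9 libraries were compared with those of 12963 genes that had a mean of at least 50. The correlations are descriptions over libraries that share genotype and litter. Nearest to Slc17a6 were Cntn4, a neuronal adhesion gene (Pearson r of log2 values 0.9813, n = 9), Tmem135 (0.9768) and Gria4, an AMPA receptor subunit (0.9671). Cntn4 lay between 425 and 462 in Fezf2+/+, between 528 and 620 in Fezf2-/-, and at 530 and 460 in bc208 and bc209, so it too was highest in bc207. Nearest to Slc17a7 were Ptprs, a receptor phosphatase of synapses and axons (r = 0.989), Me3 (0.9789) and Zer1 (0.9781), all lowest in bc209 and highest in bc207. Nearest to Slc17a8 were Gjd2, the neuronal gap junction gene of connexin 36 (0.9692), Atp6v1c1, a subunit of the proton pump (0.954), and Gpr61 (0.951). Between the members, r was 0.7525 for Slc17a6 and Slc17a7 (Spearman rho 0.9167), 0.6349 for Slc17a6 and Slc17a8 and 0.7316 for Slc17a7 and Slc17a8. The r of Slc17a7 was 0.8935 with Gad1, 0.8484 with Slc32a1 and 0.3297 with Gad2.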

How the data were processed

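Total RNA of the P0 cortex of 9 mice was made into polyadenylated RNA libraries and sequenced by the authors. The deposited signal of each gene is its read count divided by the DESeq size factor of the library, to 2 decimals. The submitters' processing notes name Bowtie, STAR, DESeq and mm10. Versions, annotation, counting tool and strand use are not given in the sources used here. In all 9 libraries 100% of values were whole multiples of 1 read (tolerance 0.01), which gave reads for edgeR 4.0.16 and DESeq2 1.42.0 as alternatives. Groups and litters came from the labels, which give 3 Fezf2+/+ mice.

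log2(value + 1) was fitted with limma 3.58.1 (trend, all 9 libraries, no covariate) in R 4.3.3 over 16197 genes with a mean of at least 10, with Benjamini-Hochberg adjustment and calls at 0.05. The test was also run on simulated data with the same relative spread for every gene and no litter effect. That run does not cover genes that vary as widely as Slc17a8. Ratios and single genes were tested with exact permutation tests over libraries, by listing every split. SciPy 1.17.1 gave the Benjamini-Hochberg adjustment of the ratio tests. P-values measure the spread between pups, several of them littermates. Levels per kilobase used principal transcripts of GENCODE M21 (24595 of 24624 identifiers matched) and promoters came from RefSeq. Alternatives were pseudocounts, filters, rescaling (TMM, median ratio), the 2 groups alone, a litter block, m1 only, leaving out each library, and the count tests. After the data were seen, edgeR with a litter block, libraries without Xist and libraries other than bc204 and bc208 were added. The members and gene lists were chosen with earlier results of these data known. Named list genes were those called in any comparison and the 2 with the largest difference in Fezf2-/- against Fezf2+/+. Slc17a1, Slc17a2, Slc17a4, Olig3 and Drd1 were not matched by symbol and are not analysed here. Some marker genes of cortical neurons are not reported here.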

Additional observations from a re-analysis of the deposited data

Results flagged for a closer look

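In Fezf2-/-, Slc17a6 in library bc207 (1296) stood above the other 3 libraries (974.8 to 1025): its gap to the nearest was 0.842 of the range of the group, over Dixon's critical value for 4 samples. Chance marks about 1 in 20 groups in this way. Library bc207 also had the highest Slc17a7 (3945) and Slc17a8 (116) of all 9, and the most reads (25127623). Without bc207 the log2 difference of Slc17a6 between Fezf2-/- and Fezf2+/+ was 0.50 (limma adjusted p = 0.0510).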

How the results depend on the processing

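No paired analysis was possible because the labels give no replicate number that groups share, so litter was fitted as a block instead. The effect of depth was not tested. Slc17a8 values were low, and 2 Fezf2-/-; Fezf2-EnR libraries limit every comparison of that group. Other pseudocounts, filters and rescalings changed no call of a member. Slc17a8 has no value at a minimum mean of 50, and DESeq2 gave it no adjusted p in Fezf2-/-; Fezf2-EnR against Fezf2+/+. The causes of the changes below were not tested.

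Slc17a6 in Fezf2-/- against Fezf2+/+ (0.59) kept its direction in every alternative. Its call was lost with litter as a block (0.50), with edgeR and a litter block (0.51, adjusted p = 0.0603), in libraries without Xist (0.56) and without bc204 and bc208 (0.62). edgeR without a block (0.60, adjusted p = 0.0360) and DESeq2 (adjusted p = 0.000136) called it. Leaving out 1 library gave 0.50 to 0.66, with a call only without bc208 or bc209. Slc17a7 in Fezf2-/-; Fezf2-EnR against Fezf2-/- was -1.35 without bc204 and bc208, and ranged from -1.33 to -0.18 over the fits without 1 library. Where 1 Fezf2-/-; Fezf2-EnR library was left, it was assumed to vary like the other groups. Against Fezf2+/+ it ranged from -0.82 to 0.33 over such fits and reversed without bc209. Slc17a8 in Fezf2-/-; Fezf2-EnR was called under a litter block, against Fezf2-/- (-2.58, edgeR -2.63) and against Fezf2+/+ (-2.28, edgeR -2.30). The log2 ratio of Slc17a6 to Slc17a7 in Fezf2-/-; Fezf2-EnR against Fezf2-/- ranged from -0.03 to 0.87 without 1 library and reversed without bc209 (-0.0296).

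Over all genes, limma called 139, 124 and 19 genes in Fezf2-/- against Fezf2+/+, in Fezf2-/-; Fezf2-EnR against Fezf2-/- and in Fezf2-/-; Fezf2-EnR against Fezf2+/+. edgeR called 142, 114 and 15, and DESeq2 called 315, 450 and 641. The 2 groups alone gave 221, 67 and 12. Without bc204 and bc208 the last 2 counts were 809 and 276. For the first comparison, litter m1 alone gave 233 and libraries without Xist 81. For the third, a minimum mean of 50 gave 10, a litter block 32 and edgeR with a litter block 34. Leaving out 1 library gave 66 to 217, 21 to 1088 and 8 to 491. The highest counts were without bc209, bc208 and bc208, and the lowest without bc201, bc209 and bc209.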
